A study of Mus musculus with 2 samples.

Results

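The Cxcl13 expressing fibroblasts were 269 cells in libraries of injured mouse carotid artery. Of these cells 50 came from the library taken 2 weeks after wire injury and 219 from the library taken 4 weeks after it. They were chosen on unique molecular identifiers (UMIs, each standing for 1 captured RNA molecule): at least 10 UMIs of Dcn, the fibroblast proteoglycan decorin; none of Ptprc, Myh11 or Pecam1, the leukocyte, smooth muscle and endothelial genes; and at least 2 UMIs of Cxcl13. Without the Cxcl13 condition the gate held 3456 fibroblasts (800 and 2656), among 13436 cells that passed the quality limits (5427 and 8009). The 3056 gated cells with no Cxcl13 UMI (726 and 2330) are the comparison group, called Cxcl13-zero fibroblasts here, and cells with exactly 1 UMI (24 and 107) belong to neither.

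The study profiled whole vessel cells of male C57BL/6J mice, a standard inbred strain, in which passing a wire through the artery strips the endothelium and brings on intimal hyperplasia, a thickening of the inner wall. Mice were 8 weeks old, the design gives n = 18 at each time, and the pooled cells of a time form 1 droplet library, so no cell can be traced to an animal. The tissue label says carotid artery, while the protocols also speak of a graft of the aorta and name different sides, so the vessel rests on the tissue label. The adventitia was separated from media and neointima, tissue was digested with papain, and live nucleated cells were sorted. Every library came from injured vessels, and no uninjured artery is analysed here. The libraries also held thymocytes and RNA of parathyroid and airway genes, given below. Whether the chosen cells, and the lymphocytes set beside them, came from the artery wall or from other tissue was not tested.

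CXCL13 is a chemokine that draws B cells, and T cells that help them, through the receptor CXCR5. In lymph nodes and spleen it comes from follicular dendritic cells, marginal reticular cells and other stromal cells that organise B cell follicles, and signals from the lymphotoxin beta receptor through the non-canonical arm of NF-kB switch it on. Stromal cells that make it are known from tertiary lymphoid organs, the lymphocyte aggregates that form in chronically inflamed tissue, including the adventitia of diseased arteries.

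Cxcl13 (ENSMUSG00000023078) lies on the plus strand of chromosome 5 at 95956951 to 95961068 of mouse genome build mm10, in the GENCODE M21 annotation. Its promoter is shown because the lymphotoxin pathway, which is known to act on it, is among the gene groups measured further on. The run is the RefSeq promoter of build GRCm38.p6, plus strand, 5′ to 3′, chr5:95956689-95956938. It ends at the base before the RefSeq transcript start, which differs from the GENCODE gene start of 95956951. Distances given below count from the RefSeq start. Capitals mark GGAGATTTG, the letters of a non-canonical NF-kB element, and TATAAA, the TATA box.
Cxcl13 promoter: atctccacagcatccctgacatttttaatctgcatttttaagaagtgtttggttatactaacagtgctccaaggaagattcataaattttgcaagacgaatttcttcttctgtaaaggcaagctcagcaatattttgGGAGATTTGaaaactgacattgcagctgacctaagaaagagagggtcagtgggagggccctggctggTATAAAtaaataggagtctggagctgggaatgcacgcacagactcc
GGAGATTTG begins 113 bases and TATAAA 46 bases before the transcript start, and the 2 do not overlap. Searched on both strands, GGAGATTTG occurred in 76 of 32851 mouse promoter windows of the same length (0.231%) and TATAAA in 4063 (12.4%). Of the genes found higher in the Cxcl13 expressing fibroblasts below, 0 of 377 windows held GGAGATTTG and 40 (10.6%) held TATAAA. Among genes found lower, the counts were 0 and 43 (9.95%) of 432. A match shows the letters and no binding.

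The libraries held 78773018 and 83753250 UMIs over 5864 and 8565 barcodes. Median depth of the Cxcl13 expressing fibroblasts was 18516 UMIs at 2 weeks and 12191 at 4 weeks, close to the 20267.5 and 12098.5 of Cxcl13-zero fibroblasts. Median mitochondrial shares were 1.47% and 1.93%, against 1.85% and 2.00%. The libraries share 8 barcodes, 0 of them in the chosen cells, and of the 275 and 587 barcodes with the highest Scrublet doublet scores, 1 and 2 fell among them.

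Cxcl13 expressing cells were a minority of the gate at both times. They were 6.25% of gated fibroblasts at 2 weeks (95% exact Clopper-Pearson interval 4.67 to 8.16) and 8.25% at 4 weeks (7.23 to 9.36), and 0.921% (0.685 to 1.21) and 2.73% (2.39 to 3.12) of all kept cells. With each cell thinned to 5000 UMIs, 51 of 753 (6.77%) and 222 of 2358 (9.41%) cells kept at least 1 Cxcl13 UMI. At least 2, the limit used for the main shares, were kept by 31 (4.12%) and 156 (6.62%). The intervals of the shares of the gate overlap between the times at either depth, those of the share of all kept cells do not, and with 1 library a time no test of time was possible. These and all later intervals cover counting error only.

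Within the chosen cells Cxcl13 ranged widely. The median was 11 UMIs a cell in both libraries, with maxima of 190 and 261. At 2 weeks 11 cells had 2 to 4 UMIs, 11 had 5 to 9 and 28 had at least 10, and at 4 weeks the same ranges held 54, 45 and 120 cells. The chosen cells therefore sat mostly well past the threshold of 2 UMIs. They held 1239 of the 2716 Cxcl13 UMIs of all kept cells at 2 weeks (45.6%) and 5048 of 7233 at 4 weeks (69.8%). Their summed level was 1376 and 1890 CPM (a gene's UMIs scaled to 1000000 UMIs of the same cells), a description since Cxcl13 chose them.

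Other cell types were read for the Cxcl13 they hold. Among leukocytes, taken as cells with Ptprc and at most 2 Dcn UMIs (3341 and 3556 cells, median 8425 and 5522 UMIs), 0.359% and 0.112% had at least 2 Cxcl13 UMIs and the summed level was 7.94 and 3.13 CPM. B cells (35 and 1240) stood at 0 and 2.82 CPM, and smooth muscle cells (199 and 72) at 1.01 and 1.14 CPM. T cells (269 and 696) and thymocytes (1216 and 554) held 0 cells with at least 2 UMIs at 2 weeks, and 1 and 0 at 4 weeks. Macrophages (782 and 164) were the highest of these at 25.2 and 5.25 CPM, with at least 2 UMIs in 12 cells (1.53%) and 1 cell (0.61%). At 2 weeks their 276 Cxcl13 UMIs lay in only 22 cells, so the level came from a few cells with many UMIs. The 12 macrophages were all the leukocytes with at least 2 UMIs at that time. All gated fibroblasts together, which were not chosen on Cxcl13, stood at 73.6 and 160 CPM. How much of the signal in other cell types is free RNA was not tested.

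Markers were then read for the fibroblast label. Pdgfra, a receptor for platelet-derived growth factor that marks fibroblasts, had a UMI in 98.0% of the chosen cells at 2 weeks and 92.2% at 4 weeks, against 88.4% and 86.1% of Cxcl13-zero fibroblasts. Its level was 333 against 214 CPM at 2 weeks and 363 against 283 CPM at 4 weeks. Summed over 6 fibroblast markers, which include Cxcl13 and Dcn, the chosen cells stood at 25240 and 24090 CPM, below the 33700 and 27370 CPM of Cxcl13-zero fibroblasts. The collagens Col1a1 and Col1a2 and the proteoglycan Lum of that list were each lower in the chosen cells, with Col1a1 at 4637 and 1988 CPM. The 5 B cell markers summed to 1.11 and 19.1 CPM in them, beside 0.886 and 26.0 CPM in Cxcl13-zero fibroblasts. The 5 macrophage markers summed to 61.1 and 16.1 CPM, beside 57.7 and 14.8 CPM. The 5 markers of blood endothelium were all at 0 at 2 weeks and summed to 1.5 CPM at 4 weeks. The 5 erythroid markers were lower in the chosen cells, at 22.2 against 1302 CPM and 64.0 against 580 CPM. The 4 airway markers stood at 8.88 against 111 CPM and 0.749 against 0.567 CPM, and the 4 parathyroid markers at 144 against 651 CPM and 28.8 against 25.5 CPM. By contrast, 4 neutrophil markers summed to 251 CPM in the chosen cells at 2 weeks against 11.8 CPM, and 97.2% of their S100a9 UMIs came from 1 cell. The part of these markers in the results was not tested, and for several genes the level without the cell that holds most of their UMIs is given too.

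**Figure D1:**
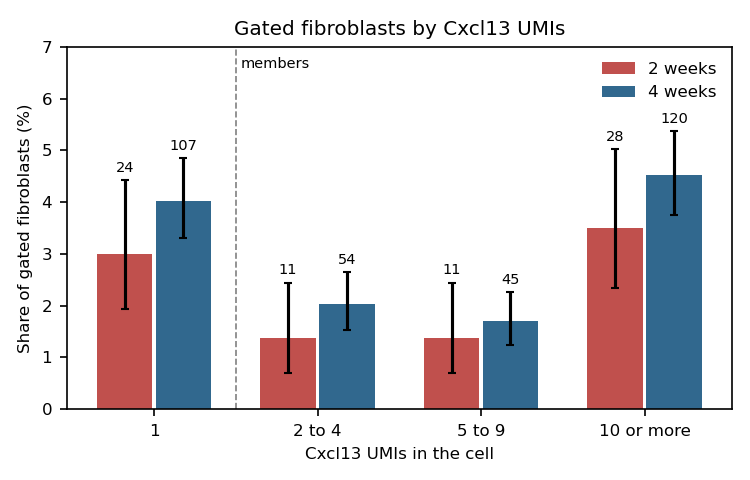
Gated fibroblasts at each Cxcl13 UMI count, by library. The bars give the share of gated cells in percent for each range of Cxcl13 UMIs, with 95% exact binomial intervals and cell numbers; cells with 0 UMIs are not drawn, and the dashed line marks where the chosen cells (members) begin. Cells with at least 10 UMIs, 28 at 2 weeks and 120 at 4 weeks, outnumber those with 2 to 4 in both libraries.

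The receptor for CXCL13 and the ligands that can induce it were read in the other cells of the same libraries. Cxcr5 had 0 UMIs in the Cxcl13 expressing fibroblasts of both libraries, where 3 UMIs would have been 3.33 and 1.12 CPM. In B cells it had a UMI in 45.7% of cells at 2 weeks and 35.5% at 4 weeks, at 110 and 69.6 CPM, and in T cells it stood at 1.77 and 23.5 CPM. Ltb, the membrane subunit of lymphotoxin, stood at 446 and 780 CPM in B cells and at 459 and 807 CPM in T cells, against 0 and 4.12 CPM in the Cxcl13 expressing fibroblasts. Lta, the other subunit, was at 17.8 and 36.2 CPM in B cells. Tnf, a related inflammatory ligand, was at 108 and 32.7 CPM in macrophages, against 53.5 and 11.7 CPM in T cells and 10.7 and 4.97 CPM in B cells. Tnfsf11, the RANK ligand made by organiser stroma and by T cells, had 0 UMIs in the Cxcl13 expressing fibroblasts, 6.58 and 0.567 CPM in Cxcl13-zero ones and 31.8 and 21.1 CPM in T cells.

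To compare gene levels, UMIs were summed over the cells of each class in each library, which gave 4 sums, and tested with edgeR's quasi-likelihood test with the library as a block. Of 12003 genes tested, 861 (7.17%) passed a Benjamini-Hochberg adjusted p of 0.05 with the same direction in both libraries, 383 (3.19%) higher and 478 (3.98%) lower in the Cxcl13 expressing fibroblasts. With library totals as the only scaling the split was 276 higher and 590 lower. The sums are of cells pooled over animals, so the p-values do not measure the spread between animals. The 2 libraries leave 1 residual degree of freedom, to which edgeR adds a prior of 19.7 degrees of freedom fitted over all genes. The p-values thus rest mostly on a spread shared across genes. Without the library block the test called 5 genes, 0 higher and 5 lower. The genes named next are the 12 in each direction with the largest change among called genes, ranked by the smaller of the log2 ratios of the 2 libraries, with 20 CPM or more in the class where the gene is higher.

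Among the higher genes were growth factors, receptors and enzymes. Procr, the endothelial protein C receptor (chromosome 2, 155751117 to 155755471), had 424 UMIs or 471 CPM at 2 weeks, against 121 CPM in Cxcl13-zero fibroblasts, and 613 against 235 CPM at 4 weeks. The log2 ratios of 1.96 (1.80 to 2.11) and 1.38 (1.30 to 1.46) put the chosen cells above in both libraries, with an adjusted p of 5.6e-09 by edgeR's quasi-likelihood test (log2 1.72, SE 0.13). It had a UMI in 82.0% and 86.8% of the Cxcl13 expressing cells and in 54.3% and 55.5% of the others. Fgf10, a fibroblast growth factor that signals from mesenchyme to epithelium (chromosome 13, 118669791 to 118792115), was at 87.7 against 21.6 CPM and 54.7 against 14.7 CPM. Its log2 ratios were 2.02 and 1.90 (edgeR's quasi-likelihood test, SE 0.14, adjusted p 3.7e-09). Vegfa, the vascular endothelial growth factor, was at 139 against 52.0 CPM and 115 against 45.2 CPM, a log2 ratio of 1.42 and 1.35. Both growth factors were higher in each library, which the rule for naming genes required.

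Ntrk2, the receptor of brain-derived neurotrophic factor, was at 85.5 against 29.5 CPM at 2 weeks and 82.7 against 27.1 CPM at 4 weeks. Il1r2, the decoy receptor that binds interleukin 1 without signalling, was at 26.7 against 9.93 CPM and 30.3 against 6.16 CPM. Lcn2, an iron-siderophore binding protein of the acute phase, was at 57.7 against 14.1 CPM and 42.7 against 10.9 CPM. It rests on few cells: 1 cell held 50% of its UMIs at 2 weeks and 27.2% at 4 weeks, and without those cells the level was 29.9 and 31.3 CPM. Smpd3, a neutral sphingomyelinase, was at 192 against 59.0 CPM and 219 against 93.7 CPM. Sned1, an extracellular matrix protein, was at 720 against 225 CPM and 335 against 139 CPM. The remaining higher genes were the homeobox gene Gsc (log2 2.58 and 1.72), the aldehyde oxidase Aox3 (2.16 and 1.66), the long non-coding RNA AW112010 (1.65 and 1.29) and the actin-severing protein Scin (2.23 and 1.22). All 12 had an adjusted p of 4.7e-06 or less by edgeR's quasi-likelihood test.

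The lower genes had the larger ratios. Mfap4, a microfibril protein (chromosome 11, 61485431 to 61488900), was at 56.6 against 443 CPM at 2 weeks and 38.6 against 356 CPM at 4 weeks. The log2 ratios were −2.97 (−3.40 to −2.57) and −3.21 (−3.50 to −2.93), with an adjusted p of 8.2e-12 by edgeR's quasi-likelihood test (SE 0.14), and a UMI was found in 16% and 15.5% of the Cxcl13 expressing cells against 59.0% and 43.6%. Without the top cell at 2 weeks Mfap4 stood at 29.5 CPM. C1qtnf3, a secreted protein of the C1q and TNF family, had 1 and 3 UMIs in the chosen cells, or 1.11 against 63.7 CPM and 1.12 against 55.7 CPM. Spp1, osteopontin, had 3 and 7 UMIs, or 3.33 against 107 CPM and 2.62 against 66.9 CPM. These were nearly absent from the chosen cells in both libraries.

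Cilp, a matrix protein first described in cartilage, was at 20.0 against 180 CPM and 35.2 against 294 CPM, and without the top cells at 9.11 and 25.7 CPM. Ctgf, a matricellular protein induced by transforming growth factor beta (TGF-beta), was at 46.6 against 278 CPM and 45.7 against 288 CPM. Thbs4, a thrombospondin of tendon, was at 13.3 against 103 CPM and 27.7 against 165 CPM, and 1 cell held 75% and 52.7% of its UMIs, without which it stood at 3.39 and 13.2 CPM. Cxcl5, a neutrophil chemokine, was at 9.99 against 104 CPM and 0.749 against 32.6 CPM, so a chemokine also stands among the lower genes. Without the top cell at 2 weeks Cxcl5 stood at 4.57 CPM. Cells with a Cxcl5 UMI were 10% and 0.913% of the chosen cells against 13.4% and 5.15% of Cxcl13-zero fibroblasts. Ltbp2, which binds fibrillin microfibrils, had 0 UMIs at 2 weeks against 41.3 CPM, and stood at 1.5 against 23.5 CPM at 4 weeks. The exact interval of its log2 ratio at 2 weeks ends at −3.33, and 3 UMIs, the floor used for ranking, would have given −3.63. Acta2, smooth muscle actin, was at 27.8 against 173 CPM and 3.74 against 31.9 CPM, with a UMI in 38% against 46.6% and 4.57% against 11.8% of cells. Comp (log2 −5.07 and −3.50), Cpxm2 (−3.82 and −3.65) and Lbh (−2.91 and −2.52) complete the lower genes.

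**Figure D2:**
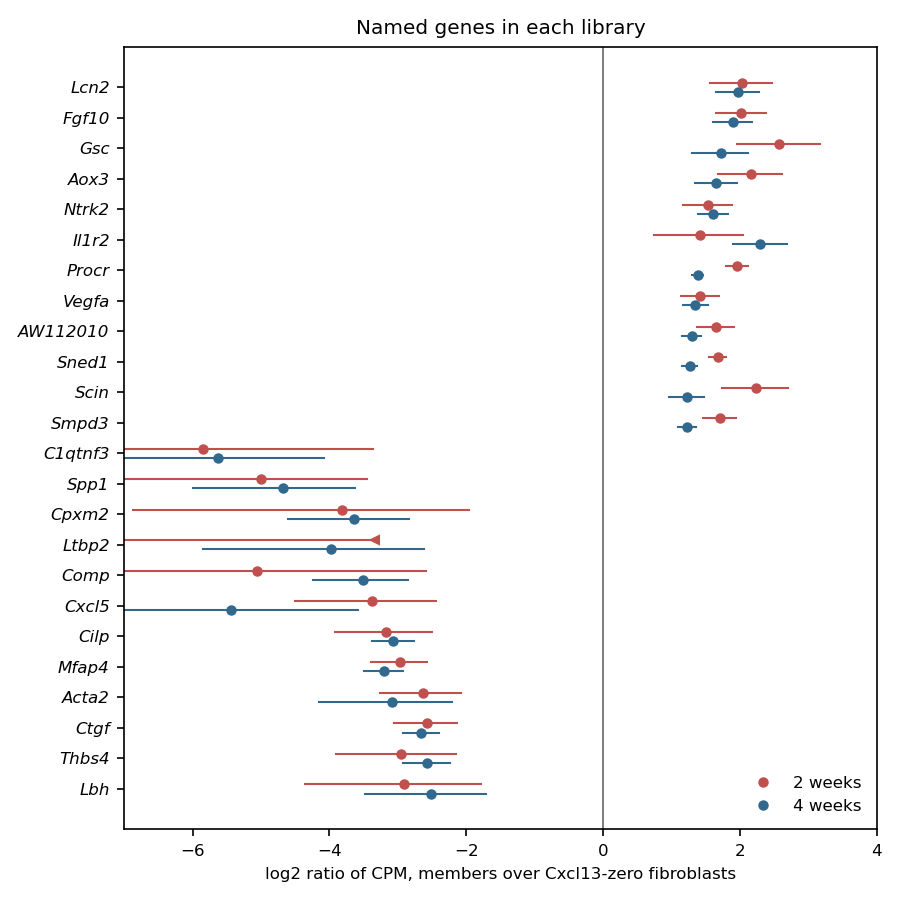
Log2 ratio of the Cxcl13 expressing fibroblasts over Cxcl13-zero fibroblasts for the 24 named genes, 1 point for each library with its 95% exact interval. Intervals are drawn no further than −7, and Ltbp2 at 2 weeks, with 0 UMIs in the chosen cells, is shown by the upper end of its interval, −3.33. Every point of the 12 higher genes lies above 1 and every point of the 12 lower genes below −2.

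The ratios depended on which fibroblasts they were set against. Where Cxcl13-zero cells were reweighted to the clusters that hold the Cxcl13 expressing cells, the 12 higher genes kept log2 ratios of 0.53 (Smpd3) to 1.69 (Lcn2), with Procr at 0.93 and Fgf10 at 1.12. The 12 lower genes kept −0.58 (Acta2) to −2.86 (C1qtnf3), with Mfap4 at −1.54. Each of the 24 ratios kept its direction against these cells and was smaller in size.

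The named genes were also read along the Cxcl13 count, a description only, since the range of 0 is the whole comparison group, the ranges from 2 up are the chosen cells, and the genes were named for their difference between these classes. Procr at 2 weeks was at 121 CPM with 0 Cxcl13 UMIs, 305 with 1, 381 with 2 to 4, 246 with 5 to 9 and 608 with at least 10. At 4 weeks it was at 235, 432, 573, 681 and 605 CPM. Vegfa at 4 weeks was at 45.2, 66.7, 89.9, 122 and 123 CPM, and Smpd3 at 93.7, 143, 172, 227 and 235 CPM. Mfap4 was at 443, 155, 31.0, 65.3 and 65.2 CPM at 2 weeks and at 356, 130, 49.8, 60.9 and 25.9 CPM at 4 weeks. Cells with 1 Cxcl13 UMI, just outside the threshold, lay between the cells with 0 and those with 2 to 4 for 11 of the 24 named genes at 2 weeks and 20 of 24 at 4 weeks, Procr and Mfap4 among them both times.

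**Figure D3:**
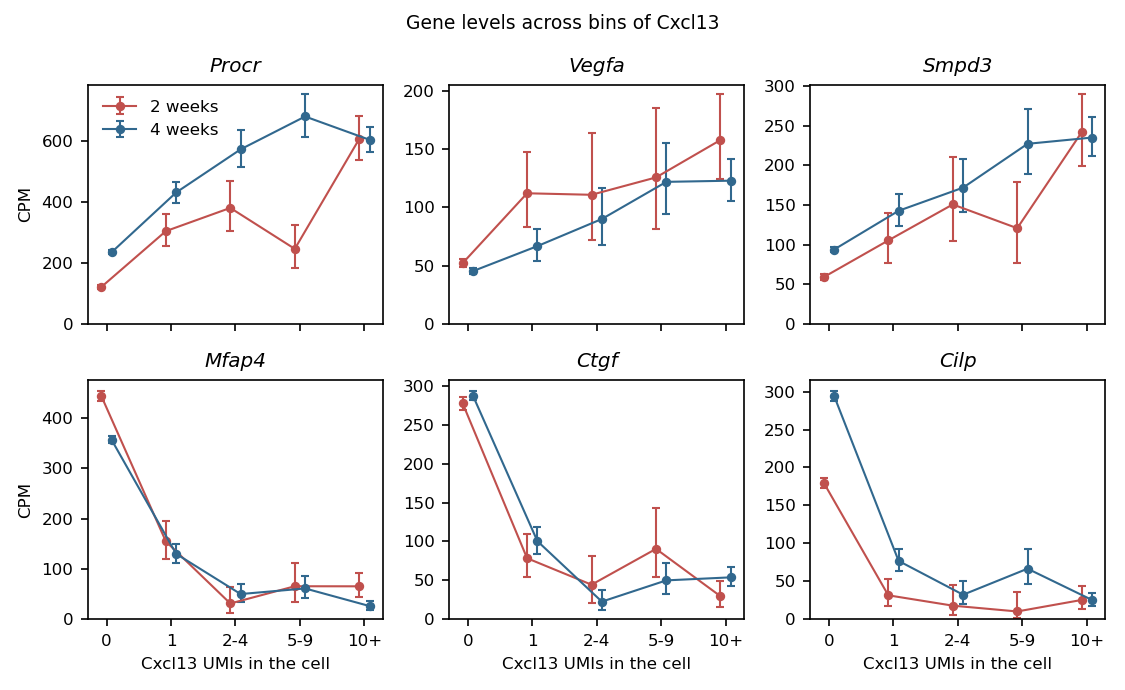
Level of 6 named genes in CPM in gated fibroblasts with 0, 1, 2 to 4, 5 to 9 and at least 10 Cxcl13 UMIs, by library, with 95% exact Poisson intervals. Procr goes from 121 to 608 CPM at 2 weeks and from 235 to 605 CPM at 4 weeks between the first and the last range, and Mfap4 from 443 to 65.2 CPM and from 356 to 25.9 CPM.

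Gene groups were then counted against the 3.19% of all tested genes that were higher and the 3.98% that were lower, where the median log2 ratio over all genes (on CPM plus 1, mean of both libraries) was −0.10. Of 7 tested ligands that attract B cells or keep them alive, 1 was higher and 0 were lower, at a median of 0.14 that becomes −0.12 with cells weighted equally. The higher one was Il6, an inflammatory cytokine, at 88.8 against 44.4 CPM at 2 weeks and 13.5 against 11.7 CPM at 4 weeks (edgeR's quasi-likelihood test, adjusted p 0.0125). DESeq2 called 0 of the list, and the 4-week interval of the Il6 log2 ratio, −0.34 to 0.70, includes 0. Cxcl12, the chemokine that retains lymphocytes, stood at 613 against 500 CPM and 326 against 329 CPM, and Tnfsf13b, the B cell survival factor BAFF, at 34.4 against 26.6 CPM and 34.4 against 44.7 CPM. Neither passed the test.

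Of 5 T zone chemokines and dendritic cell ligands, 2 were higher and 1 lower, at a median of 0.25. DESeq2 called 0 higher and the same 1 lower. Csf1, the macrophage growth factor, was at 180 against 110 CPM and 165 against 135 CPM, and Tslp, which activates dendritic cells, at 18.9 against 6.64 CPM and 7.11 against 3.01 CPM. Il34, the other ligand of the Csf1 receptor, was lower at 3.33 against 17.4 CPM and 1.87 against 11.1 CPM. Ccl19, a T cell chemokine listed under 2 gene identifiers and so not counted in the list, was at 46.6 against 29.6 CPM at 2 weeks and 15.4 against 24.4 CPM at 4 weeks, opposite in direction. Its second identifier held 0 UMIs in every class, and near-identical copies of the gene make the value uncertain.

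Receptors and NF-kB genes around the lymphotoxin pathway came next. Of 18 organiser receptors and non-canonical NF-kB genes, 2 were higher and 1 was lower, at a median of −0.12, and by DESeq2 1 and 0. Ltbr, the lymphotoxin beta receptor, was at 36.6 against 48.0 CPM at 2 weeks and 46.8 against 42.3 CPM at 4 weeks, and did not pass (edgeR's quasi-likelihood test, adjusted p 0.956). Relb, the transcription factor of the non-canonical arm, was at 27.8 against 36.2 CPM and 27.7 against 25.5 CPM, and did not pass either. Higher were Nfkbia, the NF-kB inhibitor, at 1436 against 963 CPM and 578 against 452 CPM, and Il1r1, the signalling receptor of interleukin 1, at 92.2 against 72.4 CPM and 71.5 against 42.8 CPM. Lower was Tnfrsf11b, the decoy receptor of RANK ligand, with 1 UMI in each library against 15.1 and 5.42 CPM.

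Markers of lymphoid organisers were mixed, with some at or near 0 and others not. Of 9 tested markers of follicular dendritic and marginal reticular cells, 1 was higher and 2 were lower, at a median of −0.19. Called or not, 3 had a ratio above and 5 a ratio below no change in both libraries. Cr2, the complement receptor of follicular dendritic cells, had 0 UMIs at 2 weeks and 1 at 4 weeks, and Madcam1, the adhesion molecule of marginal reticular cells, had 0 in both. The higher gene was C4b, complement component 4, at 1569 against 704 CPM and 1050 against 784 CPM, and the lower ones were the matrix protein Postn and the membrane protein Tmem119. Of 6 lymphoid adhesion genes 0 were higher and 1, Itgb1, was lower by edgeR, at a median of −0.39. DESeq2 called 0 of them, and 0 were higher at an unadjusted p under 0.05. For Vcam1, an adhesion molecule for lymphocytes, levels were 65.5 against 121 CPM and 64.4 against 76.3 CPM, which did not pass (edgeR's quasi-likelihood test, adjusted p 0.095). Of 6 MHC class II genes 0 were called in either direction by edgeR or DESeq2, and 0 had an unadjusted p under 0.05.

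Inflammatory ligands and complement held a larger share of higher genes than all tested genes did. Of 17 inflammatory chemokines and cytokines, 7 were higher and 2 lower, at a median of 0.31 that becomes −0.0935 against the reweighted cells, and by DESeq2 4 and 1. Cxcl10, a T cell chemokine induced by interferon, was at 248 against 120 CPM at 2 weeks and 113 against 45.4 CPM at 4 weeks (edgeR's quasi-likelihood test, adjusted p 2.4e-07). Ccl11, the eosinophil chemokine, was at 386 against 205 CPM and 492 against 284 CPM, with a UMI in 92.0% and 89.5% of the Cxcl13 expressing cells. Also higher were Ptgs2, the inducible cyclooxygenase, at 129 against 54.7 CPM and 48.7 against 32.4 CPM, together with Ccl8, Cxcl1, Lcn2 and Tnfaip6. Without the top cell, Ccl8 at 2 weeks was at 50.5 against 62.6 CPM and Tnfaip6 at 4 weeks at 123 against 125 CPM, the other direction. Lower beside Cxcl5 was Ccl2, the monocyte chemokine, at 244 against 280 CPM and 58.0 against 147 CPM. Higher and lower chemokines thus stood side by side.

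Of 10 complement genes, 5 were higher and 1 was lower, at a median of 0.18, and by DESeq2 4 and 1. C3, the central complement component, was at 5541 against 2348 CPM and 5102 against 3330 CPM (edgeR's quasi-likelihood test, adjusted p 2.0e-06). C1ra, a protease of the classical pathway, was at 738 against 381 CPM and 670 against 508 CPM. C1s1, C4b and the inhibitor Serping1 were the other higher genes. Of 15 interferon response genes, 2 were higher, Irf1 and Ifi47, of which DESeq2 kept Irf1, and 0 were lower by either edgeR or DESeq2, with 0 lower at an unadjusted p under 0.05. The interferon list had a median of 0.12 that becomes −0.10 without each gene's top cell. Irf1, a transcription factor of the interferon response, was at 401 against 132 CPM at 2 weeks and 84.6 against 56.7 CPM at 4 weeks.

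Matrix and myofibroblast genes were the groups with the most lower members. Of 14 fibrillar matrix genes, 12 were lower and 0 higher, at a median of −0.70. Against the reweighted cells this median stayed negative but was smaller in size, as given in the last section. DESeq2 called 11 lower and 0 higher, and 1 was higher at an unadjusted p under 0.05. Col1a1, the main chain of type I collagen, was at 4637 against 9290 CPM at 2 weeks and 1988 against 3913 CPM at 4 weeks (edgeR's quasi-likelihood test, adjusted p 1.0e-07). Col3a1, type III collagen, was at 12390 against 18690 CPM and 4133 against 8081 CPM, and the proteoglycan Bgn at 963 against 2180 CPM and 533 against 1249 CPM. Fn1, fibronectin, and Fbn1, fibrillin, were the exceptions that did not pass.

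Of 14 TGF-beta and myofibroblast genes, 11 were lower and 0 higher, at a median of −1.67. Against the reweighted cells this median too stayed negative but was smaller in size, as given in the last section. There Acta2 stood at a log2 ratio of −0.58, Ctgf at −1.10 and Ltbp2 at −2.13. By DESeq2 8 were lower and 0 higher, and 0 were higher at an unadjusted p under 0.05. Besides Acta2, Ctgf and Ltbp2, the collagen triple helix repeat gene Cthrc1 was at 80.0 against 375 CPM at 2 weeks and 19.1 against 78.9 CPM at 4 weeks, with 83.3% and 56.9% of its UMIs in 1 cell, without which it stood at 14.1 and 8.35 CPM. The 5 smooth muscle markers summed to 44.4 against 257 CPM at 2 weeks and 11.6 against 47.7 CPM at 4 weeks. Acta2 and Tagln stand in both lists, so the lists are not independent. At 2 weeks they held 2730 and 1100 of the 4064 UMIs of these markers in Cxcl13-zero fibroblasts. Cnn1 was at 5.55 against 3.48 CPM at 2 weeks and 0 against 0.602 CPM at 4 weeks. Des was at 1.11 against 10.4 CPM and 3.37 against 2.76 CPM. Myocd was at 0 in the chosen cells, with only 14 and 2 UMIs in Cxcl13-zero fibroblasts. The pericyte markers summed to 143 against 220 CPM and 102 against 233 CPM. The part of either cell type in these lower genes was not tested. Of 7 genes that mark Thbs4 and Cilp fibroblasts, 6 were lower and 0 higher by edgeR, 5 and 0 by DESeq2, with 0 higher at an unadjusted p under 0.05 and a median of −2.70. This median was also negative but smaller in size against the reweighted cells, where Thbs4 stood at −1.01, Cilp at −1.53 and Comp at −1.42.

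**Figure D4:**
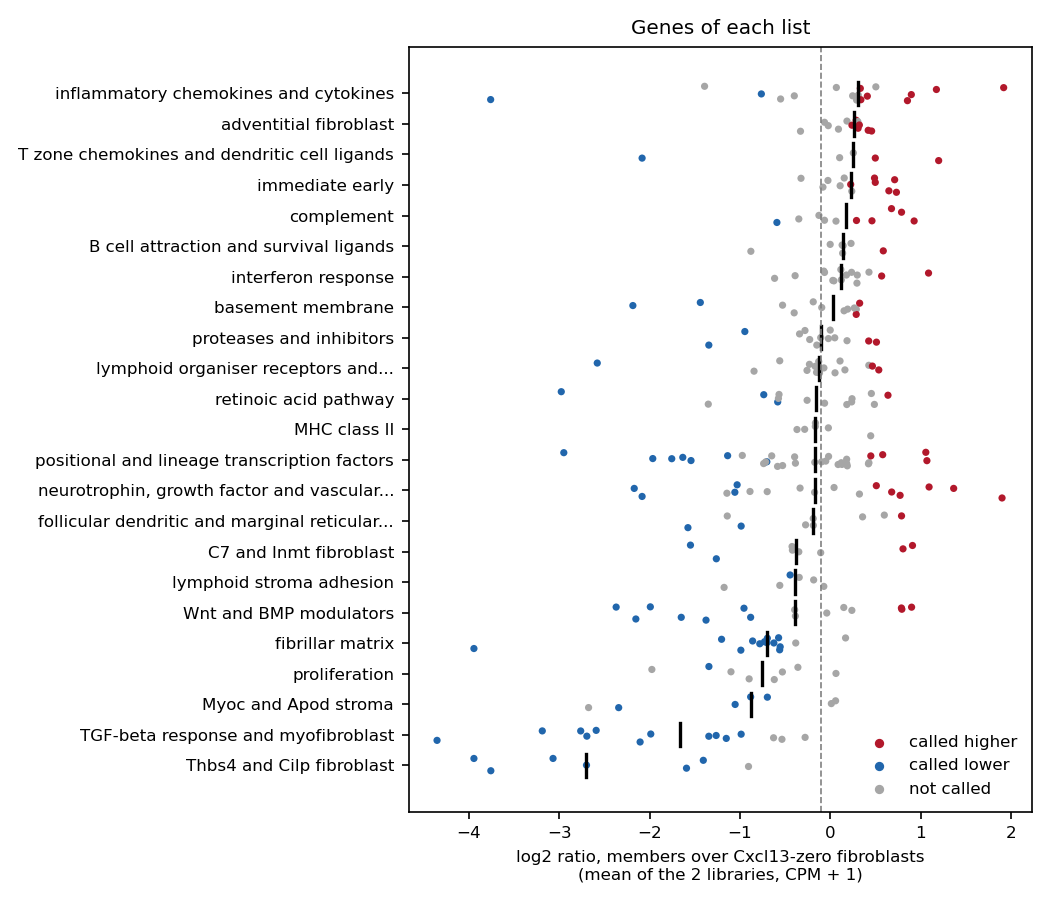
Log2 ratio (mean of the libraries, CPM plus 1) of the tested genes of each list, with a bar at the list's median and a dashed line at the median of all tested genes, −0.10. The Thbs4 and Cilp list (−2.70) and the TGF-beta list (−1.67) have the lowest medians, and the inflammatory list (0.31) the highest.

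Among lists of fibroblast subtypes, calls in the adventitial list were all higher. Of 12 adventitial fibroblast genes, 6 were higher and 0 lower, at a median of 0.26 that becomes −0.11 against the reweighted cells; DESeq2 called 2 higher and 0 lower, and 0 were lower at an unadjusted p under 0.05. Pi16, a marker of adventitial and universal fibroblasts, was at 3828 against 2915 CPM and 4248 against 3753 CPM (edgeR's quasi-likelihood test, adjusted p 0.0126). Ly6c1, Ly6a, Efhd1, Ackr3 and Igfbp5 were the other higher genes. Of 8 genes of C7 and Inmt fibroblasts 2 were higher and 2 lower, at a median of −0.38 that becomes 0.28 against the reweighted cells, with the methyltransferase Inmt at 214 against 88.5 CPM and 586 against 399 CPM. Of 7 Myoc and Apod genes 4 were lower and 0 higher by edgeR, 3 and 0 by DESeq2, with 0 higher at an unadjusted p under 0.05. Their median of −0.88 becomes 0.065 against the reweighted cells.

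Growth factors and Wnt modulators split by member. Of 17 growth factor and vascular ligands, 6 were higher and 4 lower (by DESeq2 5 and 2), at a median of −0.17 that becomes 0.061 against the reweighted cells. Beside Fgf10 and Vegfa, higher genes were Figf, the lymphatic growth factor VEGF-D, at 134 against 67.1 CPM and 225 against 97.9 CPM (edgeR's quasi-likelihood test, adjusted p 4.9e-07), Fgf2 at 112 against 55.9 CPM and 104 against 70.7 CPM, Fgf7 and Kitl. Pdgfa was lower at 13.3 against 62.4 CPM and 11.6 against 50 CPM, as were Mdk, Ptn and Vegfc. Of 15 Wnt and BMP modulators, 3 were higher and 7 lower (by DESeq2 3 and 4), at a median of −0.39 that becomes 0.0805 against the reweighted cells. Higher were the Wnt antagonist Dkk2 at 228 against 127 CPM and 120 against 71.4 CPM, the Wnt agonist Rspo3 at 55.5 against 34.7 CPM and 66.3 against 29.7 CPM, and the activin inhibitor Fst. Lower were Sfrp2, Sfrp4, Dkk3, Wisp2, Frzb, Grem1 and Bmp4.

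Of 31 positional and lineage transcription factors, 4 were higher and 7 lower, at a median of −0.17. DESeq2 called 2 higher, Hoxa5 and Klf4, and 1 lower, Meox2. Hoxa5, a positional homeobox gene, was at 40.0 against 15.2 CPM at 2 weeks and 30.3 against 17.3 CPM at 4 weeks (edgeR's quasi-likelihood test, adjusted p 7.3e-04). Tcf21, a factor of fibroblast lineages, was at 9.99 against 7.02 CPM and 22.1 against 6.20 CPM, but at 2 weeks 88.9% of its UMIs lay in 1 cell. Without that cell the level was 1.14 CPM, below Cxcl13-zero fibroblasts, and a UMI was found in 4% of Cxcl13 expressing cells against 8.68%, so its place among the higher genes rests on 1 cell at 2 weeks. Klf4 was also higher, and Gata6, Foxd1, Foxc1, Foxc2, Barx1, Meox1 and Meox2 were lower. Of 12 immediate early genes, which cells also switch on during tissue digestion, 6 were higher and 0 lower, at a median of 0.23; DESeq2 called 5 higher and 0 lower, and 1 was lower at an unadjusted p under 0.05. Egr1 was at 3361 against 2344 CPM and 1974 against 1421 CPM. Of 14 retinoic acid genes 1 was higher, the chemoattractant Rarres2 at 1078 against 607 CPM and 1226 against 898 CPM, and 3 were lower, Crabp2 and Dhrs3 among them (by DESeq2 1 and 2). Of 12 basement membrane genes 2 were higher and 2 lower by edgeR, and 0 and 2 by DESeq2. Of 13 protease genes the counts were 2 and 2 by edgeR, and 2 and 1 by DESeq2. Of 8 proliferation genes 0 were higher by edgeR, by DESeq2 or at an unadjusted p under 0.05, and 1, Top2a, was lower by edgeR and 0 by DESeq2.

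The Cxcl13 expressing cells were spread unevenly over clusters when gated fibroblasts were clustered within each library without Cxcl13. At 2 weeks the cluster led by Ptx3, Has1, Rnd1 and Irf1 held 17 of them among 59 cells (28.8%), and the cluster led by Smpd3, S100a9 and Mrgprg held 10 among 85 (11.8%). A cluster led by Saa3 and Hp held 8 among 71 (11.3%). A further 7 among 52 (13.5%) lay in a cluster led by the airway and parathyroid genes Bpifa1, Pth and Chga, whose part in the results was not tested. The Cxcl5, Tnc and Spp1 cluster held 0, as did 4 others.

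At 4 weeks the cluster led by Mrgprg, Scin, Smpd3 and Procr held 95 among 325 cells (29.2%), which was 43.4% of all Cxcl13 expressing fibroblasts of that library. The cluster led by Saa3, Penk, Cxcl12 and Fgf10 held 28 among 126 (22.2%), and that led by Galnt15, Scin and Prg4 held 34 among 286 (11.9%). Lower shares were held by the clusters led by Krtdap (24 among 406, 5.91%), Col6a5 (15 among 289, 5.19%) and Rbp4 (14 among 242, 5.79%). The Thbs4, Cilp and C1qtnf3 cluster held 2 among 256, the Cpxm2, Fmod and Mfap4 cluster 0 among 213, and the Spp1, Cxcl5 and Thbs1 cluster 1 among 104. These 3 clusters, led by genes named as lower above, together held 3 of the 219 Cxcl13 expressing cells. The clustering shares its cells and genes with the comparison, so these shares are a description.

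**Figure D5:**
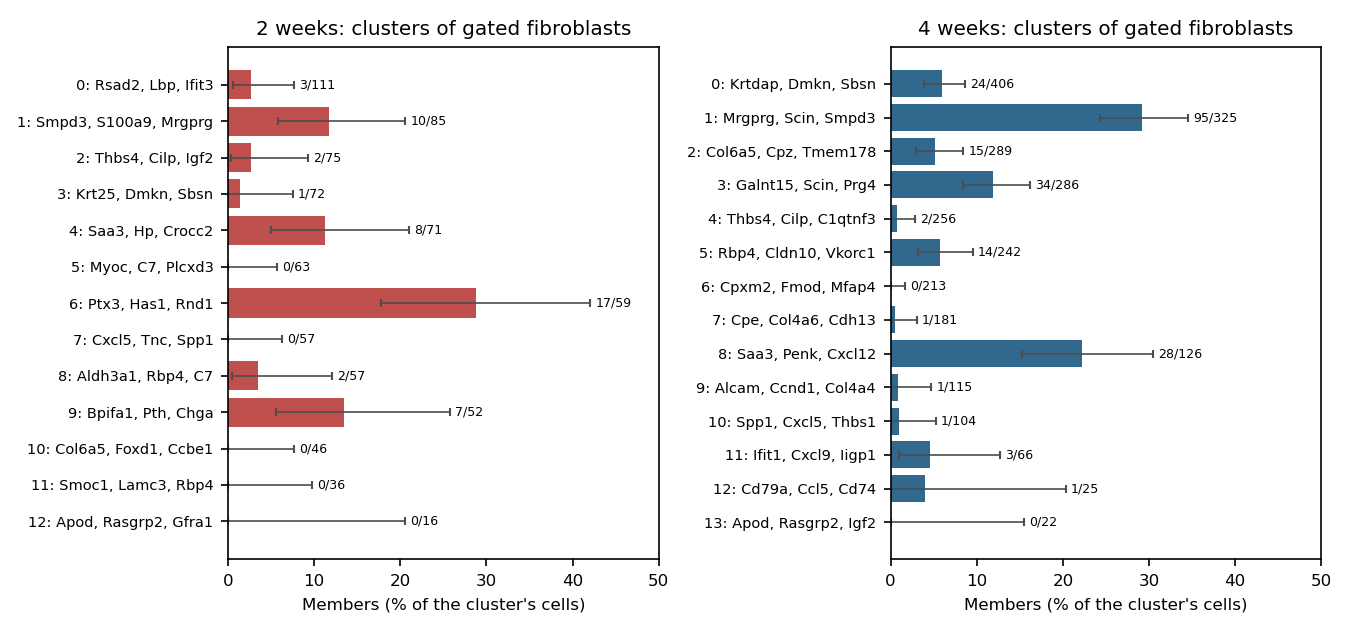
Share of each cluster of gated fibroblasts that were Cxcl13 expressing cells, in percent, with 95% exact binomial intervals, cell numbers and the leading genes of each cluster, by library. The highest shares are 28.8% (17 of 59 cells) at 2 weeks and 29.2% (95 of 325) at 4 weeks.

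Between 2 and 4 weeks no test was possible, with 1 library a time, so levels are set side by side. Of 3036 genes with at least 50 UMIs over the Cxcl13 expressing fibroblasts and 50 CPM in either library, 13 (0.428%) were past 2-fold higher at 4 weeks and 95 (3.13%) past 2-fold lower, each with a 95% exact interval clear of no change. The same genes gave 16 and 58 in Cxcl13-zero fibroblasts. Because the genes entered on levels in the Cxcl13 expressing fibroblasts alone, the counts of the classes are not on equal terms. Among the higher genes with the largest ratios were Inmt, at 214 CPM at 2 weeks and 586 CPM at 4 weeks, C7, a complement component, at 25.5 and 67.4 CPM, Dbp, a clock gene, at 38.9 and 93.2 CPM, Bdh2 at 20.0 and 59.2 CPM, and Arl6ip5 at 35.5 and 96.2 CPM. Myoc, myocilin, had 0 UMIs at 2 weeks and stood at 60.7 CPM at 4 weeks, of which 19.7 CPM remained without the cell that held the most. Each of these genes was also higher at 4 weeks in Cxcl13-zero fibroblasts. For Inmt and C7 the log2 ratios there were 2.17 and 2.4, larger than the 1.45 and 1.4 of the Cxcl13 expressing fibroblasts. For Dbp, Bdh2 and Arl6ip5 they were smaller, at 1.07, 0.63 and 0.90 beside 1.26, 1.565 and 1.44. Myoc in Cxcl13-zero fibroblasts had a log2 ratio of 0.48.

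Inflammatory genes led the lower ones. Ptx3, a pattern recognition protein, was at 510 CPM at 2 weeks and 25.5 CPM at 4 weeks, and at 477 and 22.7 CPM without the top cell of each library. Cxcl2, a neutrophil chemokine, was at 289 and 22.5 CPM, and at 199 and 14.7 CPM without the top cells. Cxcl9, a T cell chemokine, was at 114 and 7.11 CPM, and at 56.4 and 4.14 CPM without the top cells, while Cxcl13-zero fibroblasts held it at 76.7 and 81.8 CPM. Ccl3, S100a9 and Wfdc17 rested on single cells at 2 weeks: at 85.5, 197 and 66.6 CPM with them, they stood at 5.66, 5.66 and 12.5 CPM without them. Of 13 measured inflammatory genes 10 were past 2-fold lower at 4 weeks and 0 higher, with a median log2 ratio of −1.40, beside −1.25 for the same genes in Cxcl13-zero fibroblasts. Of 11 adventitial genes 0 passed 2-fold in either direction. Lower levels of most inflammatory genes at 4 weeks were thus seen in both fibroblast classes.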

How the data were processed

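The deposited files hold raw counts, whole numbers of UMIs per gene and cell barcode, 1 library for each time. Per the file headers, Cell Ranger 4.0.0 produced these counts before they were deposited, and per the submitters' processing notes the genome build was mm10. The filter on barcodes and any doublet removal before deposit are not given in the sources used here. Samples were grouped by their titles.

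Quality limits on barcodes were 300 genes, 500 UMIs and a mitochondrial share up to 10% (Python 3.11.15, numpy 2.4.6, scipy 1.17.1, pandas 2.3.3). Members and gene lists (23 lists, 316 genes) were chosen with earlier results of these data known. UMIs were summed by class and library, and edgeR 4.0.16 (R 4.3.3) tested genes with at least 20 UMIs over both classes in each library, with TMM scaling and the library as a block. The 5 gate genes and mitochondrial genes were not tested, and a few tested genes are not reported here. In counts simulated for this comparison over 11924 genes, the test called 50 of 87 genes changed by log2 1, 93 of 113 changed by log2 2 and 10 of 11724 unchanged ones. The simulation gave every gene the same fixed dispersion. It held no single cells with most of a gene's UMIs, which the data do hold, so these rates need not apply to the data. The named genes were the 12 in each direction with the largest smaller ratio of the 2 libraries, with a log2 ratio of at least 1 in both. Gated fibroblasts were clustered in each library with Scanpy 1.11.5 and leidenalg 0.10.2 (2000 variable genes, 30 components, 15 neighbours, resolution 1, without Cxcl13). Alternatives were other Cxcl13, Dcn and count limits, doublet removal with Scrublet, DESeq2 1.42.0, a reweighted comparator and leaving out cells or a library. Shares have exact Clopper-Pearson intervals, levels exact Poisson intervals and ratios exact conditional intervals, all at 95%. Depth per library and class stands in the report, and the precision of a level follows from its UMI number. Of 27998 genes in the table, 27645 had a position in GENCODE M21.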

Additional observations from a re-analysis of the deposited data

Results flagged for a closer look

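For 9 listed genes the ratio of Cxcl13 expressing over Cxcl13-zero fibroblasts pointed one way at 2 weeks and the other at 4 weeks, each interval clear of 0. With 1 library a time, this difference was not tested. The log2 ratios at 2 and at 4 weeks were 0.411 and −0.979 for Clu, −1.592 and 0.426 for Rbp4, 0.409 and −0.277 for Ccl7, and 0.576 and −3.523 for Cxcl9. They were 1.382 and −0.383 for Ptx3, 0.586 and −0.354 for Iigp1, 0.426 and −0.089 for Fn1, and 0.336 and −0.551 for Mmp3. For Jund they were −0.157 and 0.104. Without the top cell of each gene, levels at 2 weeks were 82.7 against 102 CPM for Clu, 56.4 against 76.7 for Cxcl9, 74.9 against 79.1 for Iigp1 and 162 against 172 for Mmp3, so these 4 were then lower in the chosen cells at both times.

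Cells outside the gate also held Cxcl13. At least 2 UMIs were found in 53 of 4627 kept cells at 2 weeks (1.15%) and in 79 of 5353 at 4 weeks (1.48%), beside 0.359% and 0.112% of leukocytes and 1.53% and 0.61% of macrophages. Of these cells 34 and 70 had at least 10 Dcn UMIs, 34 and 46 had a Ptprc UMI, 15 and 10 a Myh11 UMI and 11 and 27 a Pecam1 UMI, and 2 and 19 were among the highest doublet scores.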

How the results depend on the processing

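The count of 861 called genes became 516 with at least 1 Cxcl13 UMI, 282 by DESeq2 and 5 without the library block, and stayed within 1.5 times under the 8 other alternatives. Of the 24 named genes every one kept its direction under each alternative, 20 lost the call without the library block, and Ltbp2 also lost it under DESeq2 (adjusted p 0.0564). The share of gated fibroblasts became 9.25% and 12.3% with at least 1 Cxcl13 UMI, and at 4 weeks 6.21% with at least 5 UMIs. After thinning to 5000 UMIs, 9.41% of cells at 4 weeks kept at least 1 UMI. At least 2, the limit of the main share, were kept by 4.12% at 2 weeks and 6.62% at 4 weeks. The count of genes past 2-fold between times was 108 and ran from 90 to 119. List medians, log2, that moved by more than their spread between the libraries follow; the cause was not tested. With at least 1 Cxcl13 UMI (all genes −0.065), medians were B cell ligands 0.26, T zone 0.41, organiser NF-kB −0.032, lymphoid adhesion −0.23, interferon 0.35, Thbs4 and Cilp −1.82, Myoc and Apod −0.60, transcription factors −0.30 and growth factors −0.13. With at least 5 Cxcl13 UMIs (all genes −0.11), medians were B cell ligands 0.083, interferon −0.0046, adventitial 0.19, Thbs4 and Cilp −2.34, immediate early 0.33, transcription factors −0.42 and growth factors −0.33. With at least 5 Dcn UMIs (all genes −0.10), the lymphoid adhesion median was −0.44. With at least 20 Dcn UMIs (all genes −0.097), the lymphoid adhesion median was −0.36. Without the highest Scrublet scores (all genes −0.096), medians were T zone 0.10, lymphoid adhesion −0.47, interferon 0.14, MHC class II −0.047 and proliferation −0.42. Over the middle of the UMI range (all genes −0.13), medians were B cell ligands 0.015, T zone 0.40, lymphoid adhesion −0.30, interferon 0.59, MHC class II −0.36, fibrillar matrix −0.80, adventitial 0.21, Thbs4 and Cilp −3.72, Myoc and Apod −1.27, Wnt and BMP −0.98, proteases −0.30, transcription factors −0.29, proliferation −0.25 and growth factors −0.78. With cells weighted equally (all genes −0.10), medians were B cell ligands −0.12, organiser NF-kB −0.062, lymphoid adhesion −0.46, interferon 0.22, Thbs4 and Cilp −3.02, Myoc and Apod −1.14, immediate early 0.15 and proliferation −0.51. Against the reweighted cells (all genes −0.057), medians were B cell ligands 0.062, organiser NF-kB −0.16, lymphoid adhesion −0.21, inflammatory −0.0935, interferon 0.24, MHC class II −0.26, fibrillar matrix −0.35, TGF-beta −0.47, adventitial −0.11, C7 and Inmt 0.28, Thbs4 and Cilp −1.01, Myoc and Apod 0.065, Wnt and BMP 0.0805, proteases 0.099, immediate early 0.13, proliferation −0.33 and growth factors 0.061. Without each gene's top cell (all genes −0.23), medians were B cell ligands −0.070, T zone 0.039, organiser NF-kB −0.20, lymphoid adhesion −0.57, retinoic acid −0.46, inflammatory −0.11, interferon −0.10, MHC class II −0.26, fibrillar matrix −0.84, adventitial 0.19, Thbs4 and Cilp −3.81, Myoc and Apod −1.23, proteases −0.26, immediate early 0.15, transcription factors −0.49, proliferation −1.23 and growth factors −0.50. Leaving out either library gave T zone 0.097 to 0.29, organiser NF-kB −0.11 to −0.060, lymphoid adhesion −0.43 to −0.40, interferon 0.15 to 0.17, MHC class II −0.16 to −0.054, adventitial 0.21 to 0.28, Myoc and Apod −0.65 to −0.57, transcription factors −0.35 to −0.25, proliferation −0.97 to −0.71 and growth factors −0.013 to 0.020. Both classes of a library were compared within it through the library block. Between the times no paired analysis was possible because each time has 1 library. Depth limits all genes with few UMIs in the chosen cells, which were 50 at 2 weeks. The reweighted comparator, the middle UMI range and the top-cell values rest on fewer cells or UMIs. The values without top cells take cells from 1 class alone.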
